A study of Drosophila melanogaster with 21 samples.

Results

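The deposited ATAC table of Drosophila melanogaster L1 neurons held 26121 peaks of open chromatin, and 6666 of them (25.5%) had a nearest gene whose symbol was not in the RNA table of the same neurons. These peaks lay nearest to 2304 genes. They were chosen by names alone: the symbol that the authors gave as nearest gene had no exact match among the 7076 genes of the RNA table and did not start with a prefix of long non-coding, antisense, transfer, small nuclear or nucleolar RNA or microRNA genes. Another 17141 peaks lay nearest to 5365 genes of the RNA table, and 2314 peaks carried one of those prefixes and are not described. The prefix of the small RNA genes also left out the protein genes snky and snu (2 peaks). ATAC levels took no part in the choice.

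All libraries used here came from wild-type flies, and L1 lamina neurons had been sorted from brains by FACS at 40, 60 and 72 h after puparium formation (APF). Each age had 2 ATAC libraries, made with a modification of the Buenrostro protocol, and 2, 3 and 2 SMART-seq2 RNA libraries. The labels name neither the marker of the sort nor the sex of the animals, and they do not say whether replicates came from separate animals, so p-values reflect the spread among these libraries alone. The 8 single-cell samples were not analysed here.

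ATAC-seq uses a transposase that cuts where DNA is not wrapped in nucleosomes, so active promoters and enhancers give peaks. A promoter can be open while its gene makes little RNA, and an enhancer can lie far from the gene that it controls, so the nearest gene need not be the gene controlled. L1 neurons are first-order interneurons of the fly visual system that receive photoreceptor input in the lamina, and in the second part of pupal life they form their synapses. Levels are given in RPKM (reads scaled to peak length and to a scaled library size). Changes are differences of log2(level + 1) ± their SE from limma.

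The libraries held 12.7 to 19.8 M reads in peaks. The library size that the levels imply, divided by these reads, was 0.927 and 0.800 (40 h), 1.02 and 1.02 (60 h) and 1.15 and 1.14 (72 h). At 40 h it lay below the reads in peaks, so it is a scaled size, and the ratio rose with age. Scaling to reads in peaks, an alternative given below, leaves this factor out. The peaks without an RNA-table gene had a median of 191 to 292 reads per library. Over these peaks the libraries of 1 age correlated at 0.949 at 40 h, 0.801 at 60 h and 0.859 at 72 h (Pearson's r on the log2 scale across peaks, a description). The 60 h libraries stood apart: replicate 2 correlated at 0.854 with 72 h replicate 1 and at 0.517 with 40 h replicate 1, and replicate 1 at 0.705 and 0.649. In the RNA libraries 4 L1 markers (svp, VGlut, ort and dac) summed to 505 to 1814 RPKM and 4 pan-neuronal markers to 211 to 590.4 RPKM. The 6 glial markers summed to 16.0 to 66.3 RPKM at 40 and 60 h and to 512 and 1541 RPKM at 72 h, with repo at 0.235 to 16.7 RPKM. Other lamina neurons' markers (4 of 5 listed) summed to 3.74 to 11.1 RPKM, muscle markers to at most 7.93, GABAergic and monoaminergic neuron markers (4 of 5 listed) to 33.1 and 34.9 at 40 h and 56.0 to 96.5 later, and the hemocyte marker Hml to at most 0.454 RPKM. The 5 photoreceptor markers summed to 16.5 to 398 RPKM, and the progenitor markers dpn, ase and wor had no row in the RNA table. The part of other cells in the ATAC results was not tested. In bulk samples, fewer cells of a type and less signal per cell cannot be told apart.

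Of the 2304 genes, 2296 matched a gene record, and 2104 (91.3%) were protein-coding, with 5472 of the 6666 peaks. Pseudogenes (126) had 834 peaks, long non-coding RNA genes without the prefix (26) had 224, ribosomal RNA genes (20) had 61, and their pseudogenes (9) had 34. Most genes, 1351 (58.6%), had 1 peak, whereas 77 had 10 or more. The 8 genes with most peaks all lay where genes are sparse: DIP-lambda (167 peaks, 2R), RYa (90, 2R), Pzl (152, 3R), CG42598 (121, 3L), CR14578 (88, 3L) and CG40813 (130, X) next to the centromeres, and Su(Ste):CR42424 (73) and Ppr-Y (60) on the Y chromosome. Median levels over the 167 peaks of DIP-lambda, which encodes an immunoglobulin-domain surface protein, were 27.8 and 21.6 (40 h), 29.2 and 44.5 (60 h) and 47.1 and 55.0 (72 h). These peaks lay up to 377981 bp from its start, so the gene name marks a place more than a gene.

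By position, the peaks fell into 6 regions. The rest of the chromosome arms held 4112 (61.7%, against 83.8% of the peaks of RNA-table genes), and the ends of the arms next to the centromeres held 1759 (26.4%, against 14.4%). The Y chromosome held 586, which is 95.4% of all 614 Y peaks, the histone gene cluster 56, the ribosomal RNA genes 101 and chromosome 4 52. The limits of the arm ends (above 22 Mb on 2L and X, below 6 Mb on 2R, above 23 Mb on 3L and below 4 Mb on 3R) were set after the levels had been seen.

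The peaks lay a median of 5900 bp from the nearest start site, against 5185 bp for peaks of RNA-table genes. Within 500 bp lay 1212 of them (18.2%), against 35.0% of the peaks of RNA-table genes, and beyond 10000 bp lay 2728 (40.9%, against 40.4%). The far class was mostly arm ends (1539) and Y (394), and the near class mostly the rest of the arms (1084). Few overlapped the span of a gene of the RNA table: 4.79% of all and 15.2% of those within 500 bp, against 86.9% of the peaks of RNA-table genes. Peaks were named by their nearest gene, so a peak inside an RNA-table gene can take its name. The part of this naming in the contrast was not tested. The span of their own nearest gene was overlapped by 45.02%, against 87.0% of the peaks of RNA-table genes. The peaks without an RNA-table gene had a median width of 424 bp, from 200 to 4252 bp.

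Absence from the RNA table was not the same as a silent gene. The table's lowest listed gene reached 0.15 RPKM at most, 98.1% of its genes reached 1 RPKM in 2 libraries, and the sources used here do not give its filter, so the level of an absent gene is not known. The absent genes included those of replication-dependent histones and ribosomal RNA, and the gene of 7SL RNA, the RNA of the signal recognition particle. These transcripts carry no poly(A) tail, and the RNA libraries are labelled as poly(A) RNA. They also included protein genes in use in most cells, chosen here after their values had been seen, such as mRpL53 of the mitochondrial ribosome, Tim10 of mitochondrial import, the chromatin protein gene MEP-1 and Trl, which encodes the GAGA factor. The start-site peak of mRpL53 (2R:13953631-13954752, also over AGO1 of the RNA table) had levels of 191 and 232 (40 h), 179 and 175 (60 h) and 133 and 135 (72 h), and that of MEP-1 (3L:2634781-2635896) levels of 186 and 236 (40 h), 169.5 and 146 (60 h) and 111 and 102 (72 h). Both were highest in 40 h replicate 2 and lowest in the 72 h libraries. At Tim10 (2R:21690520-21691058) the levels were 59.0 and 64.5 (40 h), 93.1 and 99.95 (60 h) and 82.8 and 83.0 (72 h), lowest at 40 h. Only 1 absent symbol, CG3809, is an older name of a gene that the RNA table lists (Adk1).

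Close to start sites, peaks of absent genes were lower than peaks of RNA-table genes, and farther out the difference was smaller. Within 500 bp the median level was 43.6 and 44.7 (40 h), 42.7 and 41.5 (60 h) and 40.8 and 44.9 (72 h). The peaks of RNA-table genes had medians of 62.5 and 68.1, 67.9 and 57.1, and 58.2 and 51.8 in the same order. Every library had the lower median at the absent genes, by 0.49 ± 0.16 on the log2 scale (SD, n = 6; exact sign-flip permutation test over libraries, two-sided, p = 0.03125, the smallest that 6 libraries allow; adjusted p = 0.0417 over 4 distance classes). At 500 to 2000 bp the difference was -0.37 ± 0.20 and at 2000 to 10000 bp -0.16 ± 0.12, lower in 6 of 6 libraries with the same exact p and adjusted p. Beyond 10000 bp it was -0.03 ± 0.20 (exact sign-flip p = 0.688, adjusted p = 0.688), with medians of 30.8 and 25.7 against 34.2 and 32.5 at 40 h, 29.2 and 44.9 against 32.2 and 41.4 at 60 h, and 42.9 and 51.2 against 39.9 and 44.6 at 72 h. There 3 libraries were higher and 3 lower. The far differences were -0.15 and -0.33 (40 h), -0.14 and 0.11 (60 h) and 0.10 and 0.19 (72 h), so their sign differed between 40 h and 72 h. The sign-flip test pools the ages and does not separate them. With 1 value per gene, the highest peak, the mean far difference was -0.15 and passed (adjusted p = 0.0312). On the rest of the arms alone the 4 differences were -0.54, -0.41, -0.22 and -0.05. Of the 1212 peaks of absent genes within 500 bp, 738 lay on the start site itself, against 5079 of the 5999 peaks of RNA-table genes. The part of this contrast in the near level difference was not tested. The sign-flip test covers libraries, not peaks. With 5 libraries the threshold cannot be reached, so leaving a library out gives values only.

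**Figure D1:**
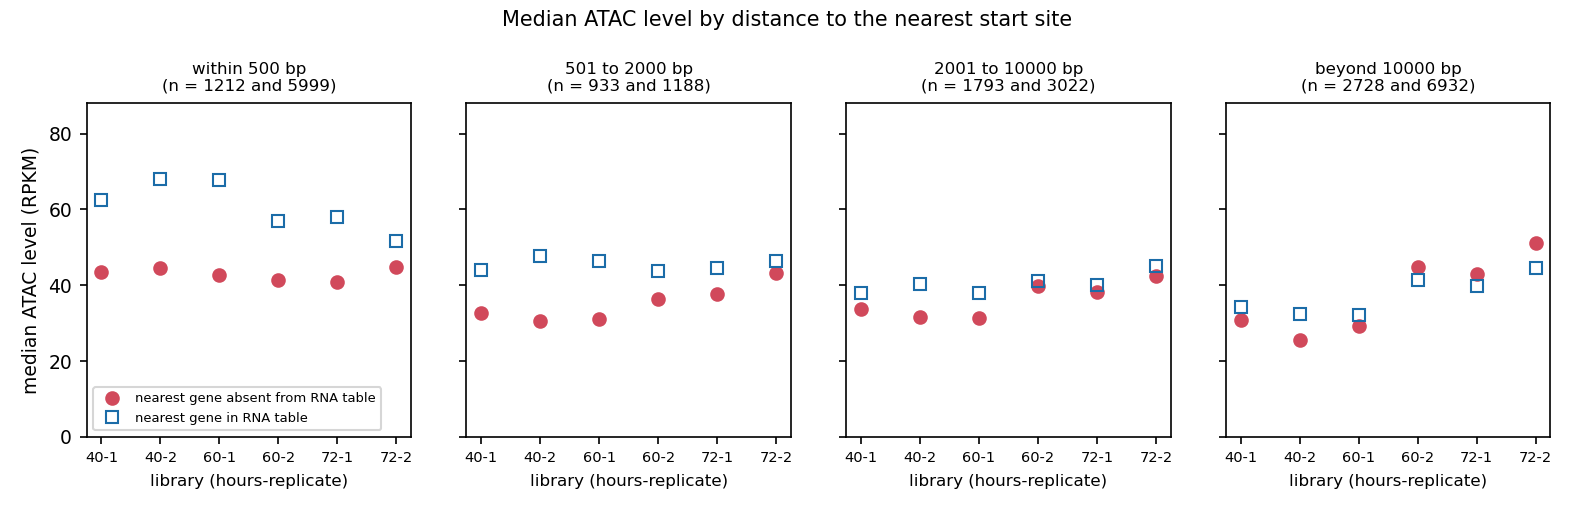
Median ATAC level (RPKM, vertical axis) in each of 6 libraries (hours and replicate, horizontal axis) for peaks whose nearest gene is absent from the RNA table (filled circles) or listed in it (open squares), in 4 classes of distance to the nearest start site. Within 500 bp the circles lie at 40.8 to 44.9 and the squares at 51.8 to 68.1, whereas beyond 10000 bp the circles lie below the squares in 3 libraries and above them in the other 3.

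Among the near peaks the highest levels were at the histone genes, which encode the proteins that package DNA and sit in a repeated cluster on 2L. The 22 peaks nearest His3 genes, all within 500 bp of a start, had mean levels of 401 to 644, with medians of 516 and 565 (40 h), 483 and 548 (60 h) and 373 and 405 (72 h). The highest was His3:CG33842 (2L:21499305-21500162), with 692 and 745 (40 h), 657 and 742 (60 h) and 494 and 536 (72 h). Its 72 h libraries lay below all others, a change from 40 h of -0.48 ± 0.18 (limma, adjusted p = 0.042) that was lost without 40 h replicate 2 or either 72 h replicate, without the trend and scaled to reads in peaks. The ribosomal RNA genes had medians of 67.1 and 49.8, 51.4 and 77.6, and 82.6 and 86.3, with 3 peaks at 18S pseudogenes of X between 359 and 549. These copies are nearly identical, and the sources used here do not say how the authors placed reads that match several of them, so single copies are uncertain.

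Y and arm-end peaks were low at 40 h and higher at 72 h, and the 60 h libraries split. Median levels on the Y were 30.7 and 25.9 (40 h), 29.0 and 50.8 (60 h) and 41.7 and 57.7 (72 h). At the arm ends they were 28.3 and 22.5, 28.2 and 43.4, and 44.2 and 51.9, and peaks of RNA-table genes at the same ends had 28.2 and 23.8, 27.9 and 42.3, and 42.2 and 49.4. In both regions 60 h replicate 1 lay with the 40 h libraries and replicate 2 with the 72 h libraries. The share of all reads in peaks that fell in these arm-end peaks was 3.21% and 2.53% (40 h), 3.54% and 5.73% (60 h) and 6.21% and 6.90% (72 h). On the rest of the arms the absent genes' peaks held a steady 10.9% to 11.8%, with medians of 36.9 and 36.6, 34.4 and 38.9, and 38.0 and 42.6.

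**Figure D2:**
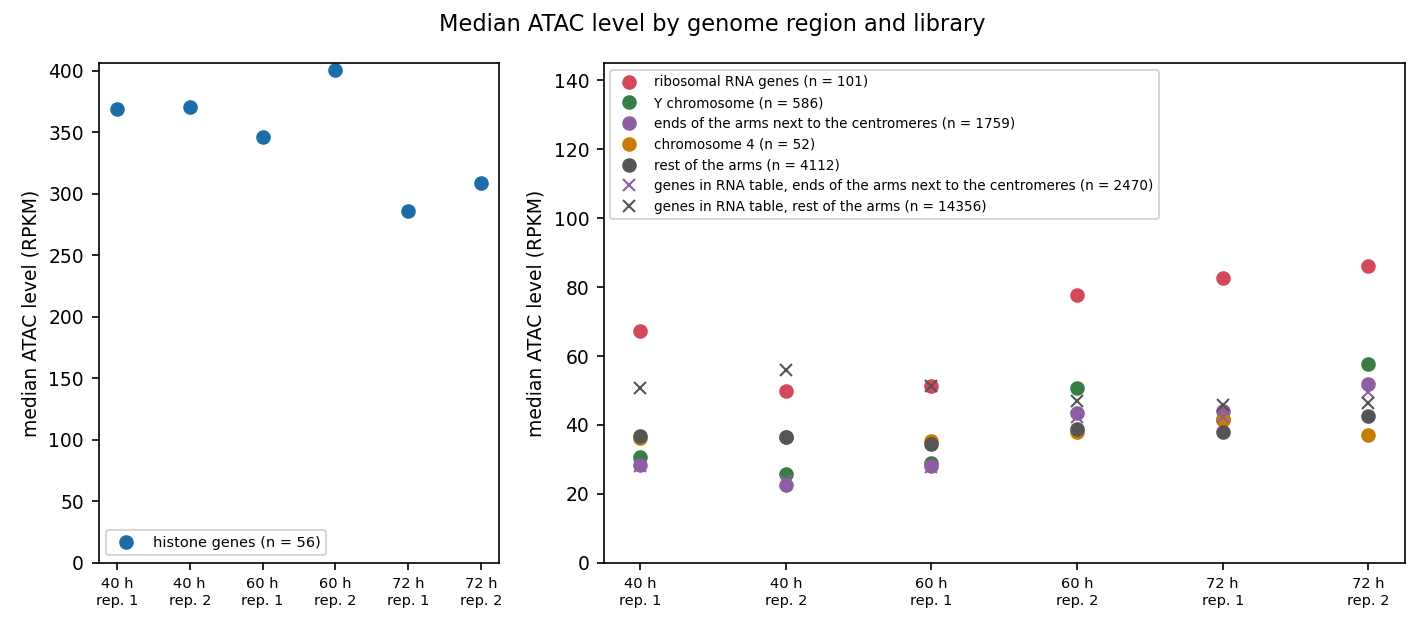
Median ATAC level (RPKM, vertical axes) by library (horizontal axes, age and replicate) for the absent genes' peaks in 6 genome regions (filled circles; histone genes at left on their own scale) and for peaks of RNA-table genes in 2 of them (crosses). Y and arm-end medians lie at 22.5 to 30.7 in both 40 h libraries and 60 h replicate 1, and at 41.7 to 57.7 in the other 3 libraries.

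A few peaks on the Y and at the arm ends had the highest levels of all 6666. The highest lay near Ppr-Y (Y:1642046-1642619), with 1161 and 2397 (40 h), 1556 and 2699 (60 h) and 1899 and 1572 (72 h). The peak assigned to kl-2, a Y gene for a dynein heavy chain of the sperm tail, lay 79744 bp from its start (Y:652832-653292) and had 1442 and 1346 (40 h), 1454 and 2401 (60 h) and 1943 and 2225 (72 h). The peak of CR41379 on 2R (2R:1825624-1826669) had 1007 and 2168 (40 h), 1352 and 2560.5 (60 h) and 1693 and 1358 (72 h), so replicate 2 was higher at 40 h and 60 h and lower at 72 h. Peaks of Pzl on 3R, CR41519 on 2L, CG46302 on 2R, and kl-5 and PRY on the Y had the same order: in these 6 peaks replicate 2 over replicate 1 was 1.95 to 2.19 at 40 h, 1.73 to 2.11 at 60 h and 0.802 to 0.861 at 72 h. Of 17 peaks in the whole table with a ratio of at least 1.5 at 40 and 60 h and under 1 at 72 h, 15 were peaks of absent genes, all on the Y or at arm ends. None of these 6 passed the test between ages (limma adjusted p = 0.5 to 0.94).

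From 40 h to 60 h, 567 of the 5725 tested peaks of absent genes rose and 664 fell, where a rise or fall is a limma adjusted p under 0.05 after Benjamini-Hochberg adjustment over all 23508 tested peaks. Over all tested peaks 26.7% changed, 10.7% higher and 16.0% lower, and among the absent genes' peaks 9.90% and 11.6%. Their median change was 0.27, against 0.08 for all. From 60 h to 72 h, 22 rose and 129 fell (all tested peaks 5.11%, 0.723% higher and 4.39% lower), with a median of 0.20 against -0.03. From 40 h to 72 h, 2147 rose and 1140 fell, with a median of 0.47 against 0.04. All tested peaks gave 55.4% there, 26.0% higher and 29.4% lower, and 37.5% of the absent genes' peaks rose and 19.9% fell. Without 40 h replicate 2 these were 10.4% and 11.9%, against 10.1% and 18.9% of all tested peaks, so the share of rises then lay at the background. Libraries of 40 h and 72 h did not overlap at 4935 of the 5725 (86.2%; all tested peaks 83.1%). The split depended on the scaling: scaled to reads in peaks, 937 rose and 557 fell in the first step and 3289 and 798 from 40 h to 72 h, with a median of 0.87 against 0.44 for all.

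These counts and medians rested on single libraries. From 40 h to 60 h, rises numbered 335 without 40 h replicate 1, 215 without 40 h replicate 2 and 2342 without 60 h replicate 1, and falls numbered 378 without 40 h replicate 2. The median change of that step was 0.03 without 60 h replicate 2, and that of the second step -0.04 without 60 h replicate 1 and 0.43 without 60 h replicate 2. In the second step rises numbered 1483 and falls 416 without 60 h replicate 2, against 0 to 17 rises without any of the other 5 libraries and 30 to 84 falls. From 40 h to 72 h, rises numbered 593 and falls 682 without 40 h replicate 2, and rises 1075 without 72 h replicate 2 (18.8%, all tested peaks 14.0%). With 1 library left at an age, that library is assumed to vary like those of the other ages.

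Of the 2147 rises from 40 h to 72 h, 1305 were on the Y and at the arm ends, against 144 of the 567 in the first step. Without 40 h replicate 2 they were 236 of 593, with 351 on the rest of the arms. By 72 h, 311 of 542 tested Y peaks rose and 2 fell (median 0.85), and at the arm ends 994 of 1498 rose and 6 fell (median 0.91). Peaks of RNA-table genes at the same ends also rose, 1206 of 2075 (58.1%), with 54 falls and a median of 0.81. Among ribosomal RNA genes 46 of 90 rose and none fell (median 0.86). Among histone copies 7 of 53 rose, none of them called without 40 h replicate 2 or 72 h replicate 2, and 20 fell (median -0.42, but 0.05 after quantile normalization and -0.01 scaled to reads in peaks). Without 40 h replicate 2 the rises numbered 34 on the Y, 202 at the arm ends and 6 at ribosomal RNA genes. They were 143 on the Y after quantile normalization, 122 there without 40 h replicate 1, and 92, 539 and 29 in the 3 regions without 72 h replicate 2. The histone falls were 4 without either 72 h replicate, 7 without 40 h replicate 2 and 12 without 60 h replicate 1. In the first step 32 Y peaks and 112 arm-end peaks rose. Those counts were 413 and 1090 without 60 h replicate 1, 9 and 26 without 60 h replicate 2, 6 and 64 without 40 h replicate 1, and 0 and 1 without 40 h replicate 2, and the Y count was 68 and 67 without 72 h replicate 1 and 2.

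**Figure D3:**
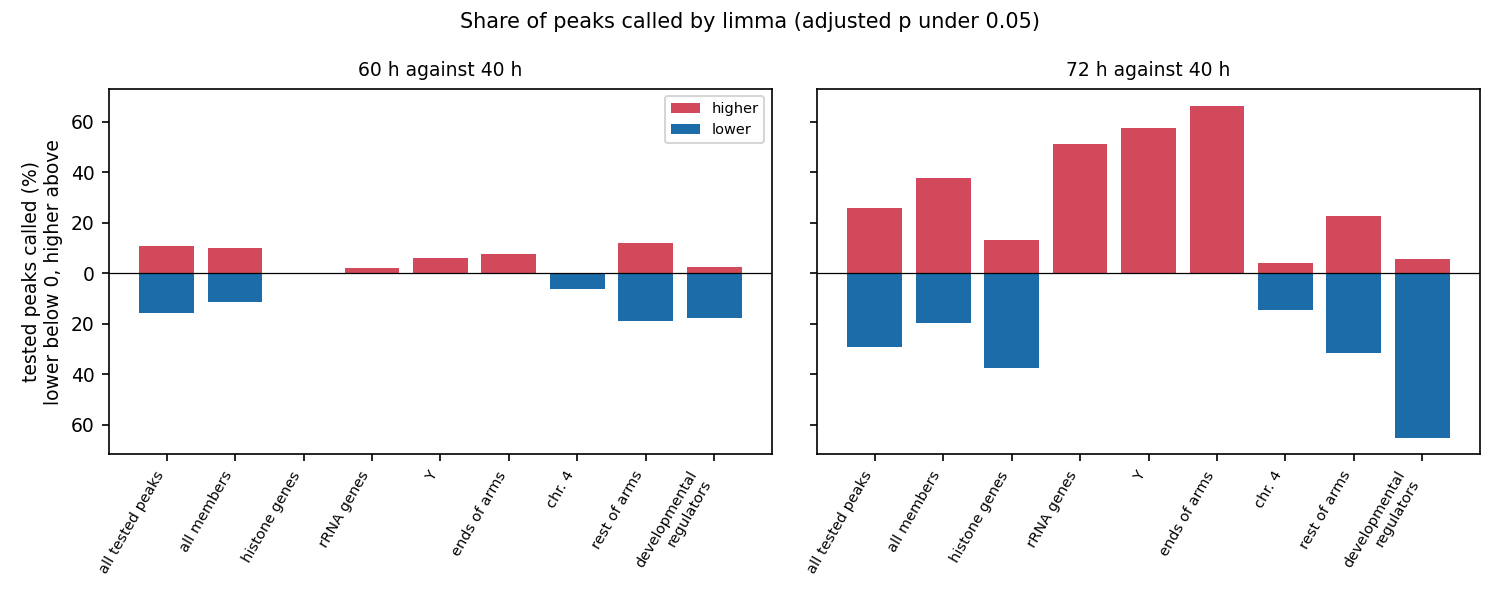
Share of tested peaks that rose (above 0) or fell (below 0) at an adjusted p under 0.05 (limma), in percent, from 40 h to 60 h (left) and from 40 h to 72 h (right), for all tested peaks, all peaks of absent genes, those of 6 regions and those of 4 lists of developmental regulators. Between 40 h and 72 h rises reach 66.4% at the arm ends, and falls reach 65.1% at the regulators.

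On the rest of the arms, where 3494 peaks were tested, falls outnumbered rises. Between 40 h and 72 h 787 rose (22.5%) and 1105 fell (31.6%), with a median of 0.01 (-0.09 after quantile normalization, -0.18 without the lowest 25% of peaks), and of 13318 peaks of RNA-table genes 16.4% rose, 36.6% fell and the median was -0.25. Within 500 bp of a start 17.4% of 956 rose and 32.6% fell, and at RNA-table genes 5.82% of 5692 rose and 30.9% fell. Beyond 10000 bp 146 of 657 rose and 207 fell. The direction went with the level: of peaks with a mean level under 40, 516 of 1702 rose and 317 fell, and of those at 60 or more, 61 of 693 rose and 429 fell (61.9%). RNA-table peaks had the same order, with 56.9% of 5405 falling at 60 or more. Without 40 h replicate 2 the totals were 351 rises and 669 falls, without 72 h replicate 2 rises were 415, without the lowest 25% of peaks they were 477, and scaled to reads in peaks 1415 rose and 788 fell.

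The largest rises of the first step started from almost closed sites. A peak 27918 bp from the start of Lasp, which encodes an actin-binding LIM and SH3 domain protein (3L:16682602-16683759), had 13.9 and 13.3 (40 h), 109.9 and 116 (60 h) and 130.4 and 131 (72 h), a log2 change of 2.96 ± 0.19 to 60 h (adjusted p = 8.4e-06). The 60 h and 72 h libraries lay far above both 40 h libraries. Near Mal-B2, a maltase gene, a peak that also overlaps the phosphodiesterase gene Pde1c of the RNA table (2L:11852302-11852530) had 7.15 and 6.05 (40 h), 54.2 and 45.02 (60 h) and 68.2 and 57.1 (72 h) and rose by 2.73 ± 0.26 (adjusted p = 2.3e-05). The other 6 of the 8 largest rises, near CG15282, CG12511, CG14147, CG13731, CG34393 and CG7560, were 2.56 to 2.94. All 8 lay from 2227 to 27918 bp from the start, had 3.35 to 13.9 RPKM at 40 h, and were called under every alternative tried.

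The largest falls of that step ended near closed. Peaks near PPYR1 (X:15249886-15250263) and at Vsx1, which encodes a homeodomain factor of other optic lobe neurons (X:5595508-5595832), fell together in both 60 h libraries. At Vsx1 the levels were 70.8 and 84.6 (40 h), 5.21 and 7.15 (60 h) and 10.53 and 7.97 (72 h), a log2 change of -3.46 ± 0.37 (adjusted p = 4.4e-05). At PPYR1 they were 76.6 and 105 (40 h), 3.98 and 8.26 (60 h) and 10.3 and 10.7 (72 h), a log2 change of -3.74 ± 0.39 (adjusted p = 3.8e-05). Peaks near Sytbeta, a synaptotagmin gene, Gr93a, a gustatory receptor gene, karr, nur, CG42749 and CG43076 changed by -3.61 to -3.32. At karr (X:20108738-20109420) the levels were 147 and 219 (40 h), 15.3 and 17.2 (60 h) and 14.2 and 17.0 (72 h). These 8 falls too were called under every alternative tried, and none of the 8 peaks passed the test from 60 h to 72 h (adjusted p = 0.26 to 0.9). Over the whole interval the largest fall, chosen after its values had been seen, was that of a peak 127412 bp from CG15465 (X:5213171-5214135, over the RNA-table gene rg), from 186 and 257 to 15.5 and 14.3, a log2 change of -3.79 ± 0.23 (adjusted p = 3.8e-06).

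**Figure D4:**
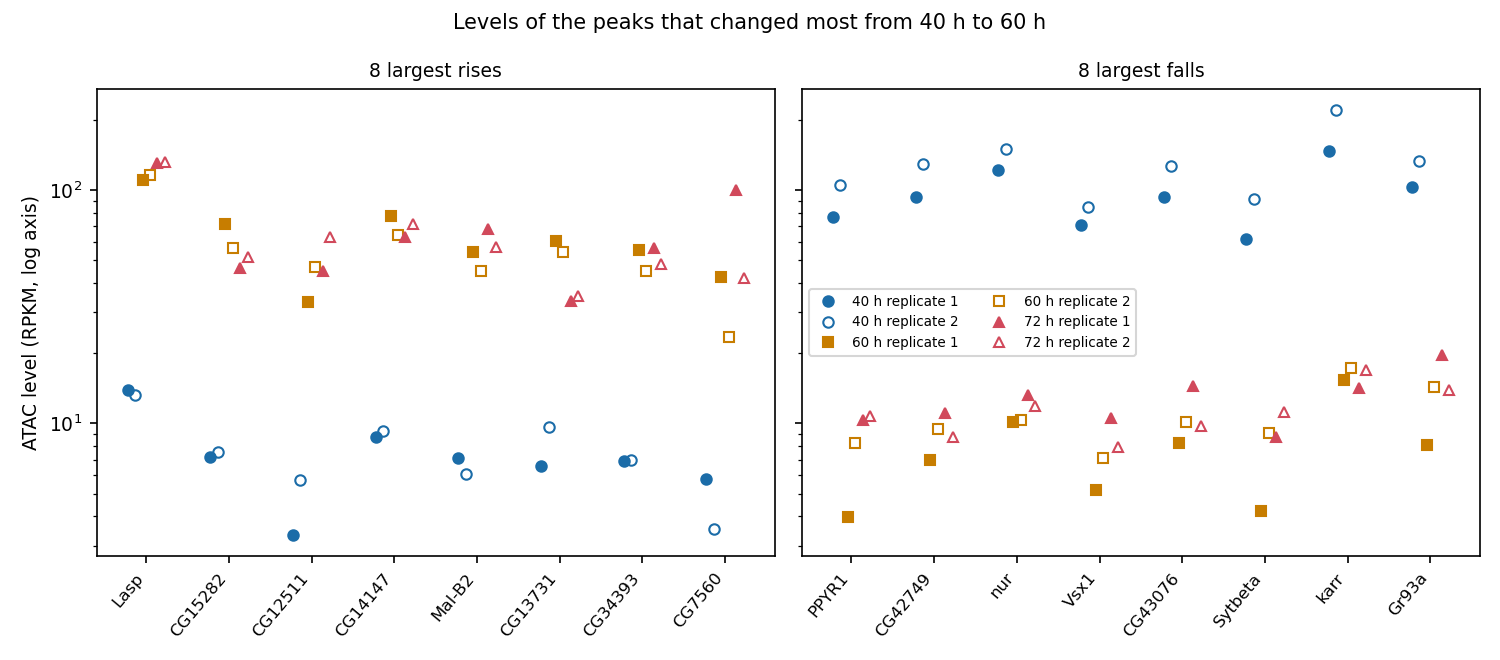
ATAC level (RPKM, log axis) in each library for the 8 largest rises (left) and 8 largest falls (right) from 40 h to 60 h, named by nearest gene, with circles for 40 h, squares for 60 h and triangles for 72 h (filled, replicate 1, and open, replicate 2). Rising peaks start at 3.35 to 13.9, falling peaks end at 3.98 to 19.7, and in all 16 the 72 h libraries stay on the side of the 60 h libraries.

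The second step had 151 calls against 1231 in the first, but 1899 against 1026 without 60 h replicate 2. The falls near CG17650 (2L:1764690-1765457) and Best4, a bestrophin channel gene (3L:15275657-15276179), came after 60 h. At CG17650 the levels were 64.6 and 94.2 (40 h), 114 and 74.1 (60 h) and 23.5 and 23.7 (72 h). At Best4 they were 75.8 and 108 (40 h), 97.0 and 56.9 (60 h) and 20.2 and 20.8 (72 h). At both peaks the 72 h libraries lay below all others, with log2 changes of -1.92 ± 0.26 (adjusted p = 0.0079) and -1.81 ± 0.27 (adjusted p = 0.01). At the start of CG43450 (3R:12195300-12197075) the level fell in both steps, with 240.2 and 311 (40 h), 98.4 and 79.6 (60 h) and 26.9 and 28.5 (72 h). Near Or45b, an odorant receptor gene, the level was high at 60 h alone: 75.3 and 76.3 (40 h), 152 and 149 (60 h) and 77.8 and 81.7 (72 h), a log2 change of 0.98 ± 0.18 (adjusted p = 0.0015) and then one of -0.91 ± 0.18 (adjusted p = 0.021, lost without 60 h replicate 1 or either 72 h replicate). Among the rises, peaks near Jon44E, a gut protease gene, and Pepck1, which encodes an enzyme of gluconeogenesis, went up in both steps. At Pepck1 (2R:18535889-18536255) the levels were 12.3 and 12.3 (40 h), 32.5 and 28.5 (60 h) and 63.6 and 80.9 (72 h). All 8 largest rises of the second step, 1.21 to 1.36, were lost without 40 h replicate 2 and without 72 h replicate 2. Of the 5725 tested peaks of absent genes, 16 rose and then fell, 4 fell and then rose, 8 rose in both and 58 fell in both steps. Over all 23508 tested peaks these courses numbered 139, 32, 52 and 459.

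Peaks of developmental regulator genes mostly fell from 40 h to 72 h. These are transcription factor genes that pattern the embryo or give other neurons their identity, and the 4 lists (Hox, segmentation, optic lobe neuron and proneural or neuroblast genes) had 129 tested peaks together. By 72 h 84 had fallen from their 40 h level (65.1%) and 7 had risen (5.43%), against 29.4% and 26.0% of all tested peaks. The median was -0.79, against 0.04 over all tested peaks. In the first step 23 fell and 3 rose (median -0.41; 8 falls without 40 h replicate 2 and 35 without 60 h replicate 1). The falls of the whole interval were 31 without 40 h replicate 2, 54 without 72 h replicate 1 and 52 when scaled to reads in peaks, and the rises 2 or 3 without either 40 h replicate or 72 h replicate 2. The median of the whole interval was below 0 under every alternative (-1.05 to -0.39). The share of falls in the first step (17.8%) lay near that of all tested peaks (16.0%). The median mean level of the 4 lists was 40.4 to 53.2. Of the absent genes' peaks on the rest of the arms 32.7% fell at mean levels of 40 to 60 (359 of 1099, median -0.07) and 61.9% at 60 or more. The part of level in the result was not tested.

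Of the Hox genes, which set segment identity along the body, 7 had 21 peaks. By 72 h 13 fell (61.9%, all tested peaks 29.4%) with none rising (median -0.77). At the start of Abd-B (3R:16934045-16934674) the levels were 175 and 248 (40 h), 146 and 149 (60 h) and 92.6 and 134 (72 h), a log2 change of -0.90 ± 0.23 by 72 h (adjusted p = 0.0072). The peak of abd-A at 17708 bp had 88.7 and 124 (40 h), 75.6 and 75.1 (60 h) and 41.8 and 57.0 (72 h) and fell by 1.09 ± 0.23 (adjusted p = 0.0024). In both, 40 h replicate 2 was the highest library and 72 h replicate 1 the lowest, and the calls of Abd-B, pb and Ubx were lost without 40 h replicate 2. Of 24 tested peaks of segmentation genes 14 fell and none rose (median -0.71), among them the start of en, which encodes a homeodomain factor of posterior compartments, with 134 and 211 (40 h), 124 and 113 (60 h) and 64.2 and 84.9 (72 h) (-1.18 ± 0.24, adjusted p = 0.0019). Without 40 h replicate 2 only 2 Hox and 2 segmentation peaks fell, and without 72 h replicate 1, or scaled to reads in peaks, it was 6 and 5.

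The list of other optic lobe neurons' transcription factors had 33 genes with 78 peaks, 73 of them tested, and from 40 h to 72 h 49 fell and 4 rose (median -0.90; 22 fell without 40 h replicate 2). The highest was at the start of disco, a zinc finger gene (X:16216513-16218004), with 204 and 297 (40 h), 185 and 175 (60 h) and 109 and 116 (72 h), a log2 change of -1.12 ± 0.21 (adjusted p = 0.0011). At the start of vnd, a homeodomain gene (X:590186-591139, also over spdi of the RNA table), the levels were 138 and 195 (40 h), 123.4 and 131 (60 h) and 61.6 and 71.3 (72 h), a log2 change of -1.29 ± 0.21 (adjusted p = 0.00045). At both genes the 40 h libraries were highest and the 72 h libraries lowest, without overlap between these ages. Peaks of salm and Rx, also regulator genes, changed by -1.06 and -1.13 (adjusted p = 0.0023 and 0.0012). Of 12 proneural and neuroblast peaks 8 fell and 3 rose (median -1.03; 5 falls and 0 rises without 40 h replicate 2). The start of dimm, which encodes a bHLH factor of neuroendocrine cells (2L:21330861-21331833), fell early, with 80.4 and 98.0 (40 h), 25.5 and 21.5 (60 h) and 18.2 and 15.1 (72 h) (-1.88 ± 0.24 to 60 h, adjusted p = 0.00014). A peak of cas, a temporal factor gene of neuroblasts, rose by 0.80 ± 0.26 from 40 h to 72 h (adjusted p = 0.023; lost without either 40 h replicate or 72 h replicate 2), and the proneural gene ato did not pass (-0.50 ± 0.22, adjusted p = 0.077).

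**Figure D5:**
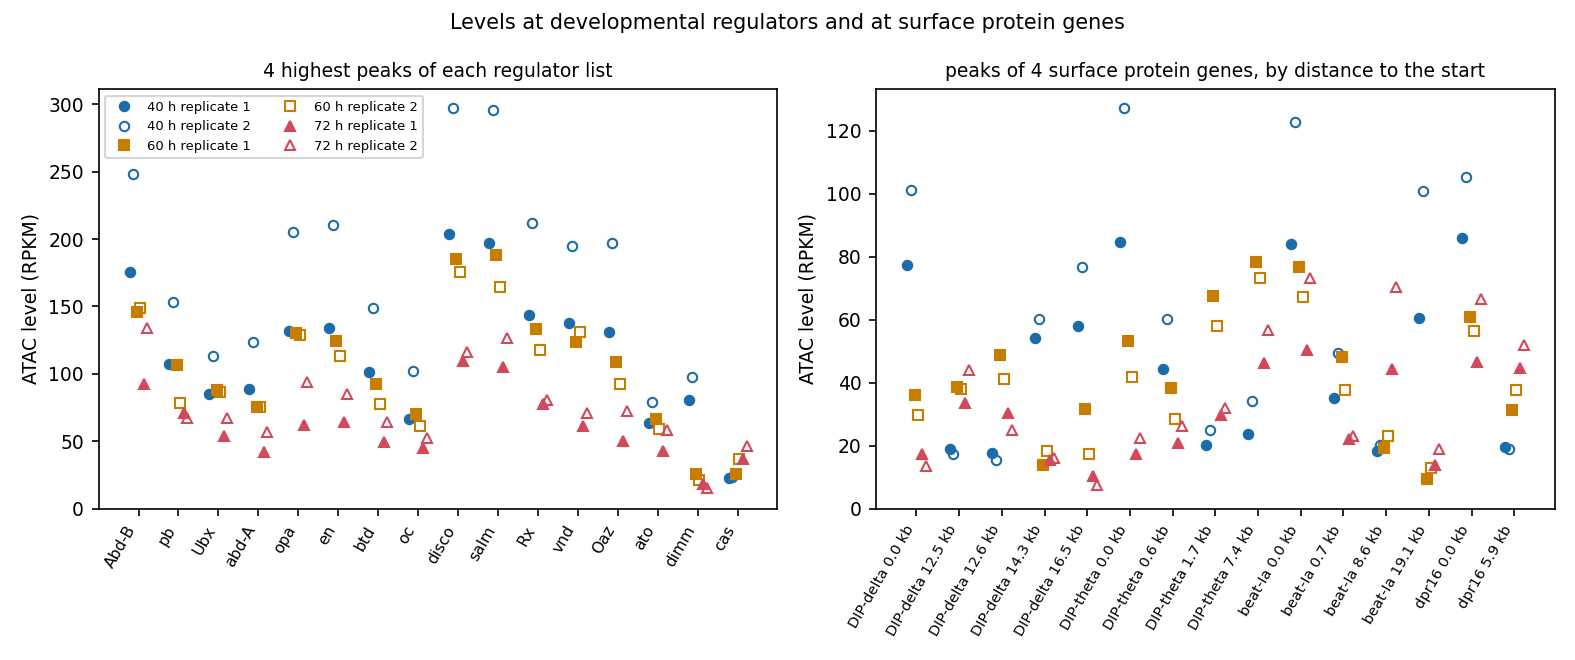
ATAC level (RPKM, vertical axes) in each library at the 4 highest peaks of each list of developmental regulators (left) and at every peak of 4 surface protein genes, by distance to the start site in kb (right), with circles for 40 h, squares for 60 h and triangles for 72 h (filled, replicate 1, and open, replicate 2). At disco the level runs from 297 in 40 h replicate 2 to 109 in 72 h replicate 1, and at DIP-theta the start site falls while peaks at 1.7 and 7.4 kb are highest at 60 h.

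At some surface protein genes, peaks of 1 gene moved in opposite directions. DIP, dpr, beat and side genes encode immunoglobulin-domain proteins through which neurons recognise partners, and the list was chosen after values had been seen. The RNA table listed 37 of these genes, and 15 others had 211 peaks here, 167 of them those of DIP-lambda at an arm end. Of all tested peaks 10.7% rose and 16.0% fell from 40 h to 60 h, and 26.0% rose and 29.4% fell by 72 h. Over the whole list, with 184 tested peaks, 21 rose and 15 fell from 40 h to 60 h (median 0.51). By 72 h 111 rose and 23 fell (median 0.88). DIP-lambda gave 106 of those 111 rises and no fall (30 rises without 40 h replicate 2). Without DIP-lambda the direction turned. Of 38 tested, 15 fell and 6 rose from 40 h to 60 h (median -0.39; 6 falls and 3 rises without 40 h replicate 2), and 23 fell and 5 rose by 72 h (median -0.79; all tested peaks 0.04). The latter were 9 falls and 3 rises without 40 h replicate 2, and the rises 3 without 40 h replicate 1 and 2 without 72 h replicate 2. At the start of DIP-theta (2L:5658294-5658864) the levels were 84.8 and 127 (40 h), 53.4 and 42.0 (60 h) and 17.5 and 22.6 (72 h), a log2 change of -2.33 ± 0.26 by 72 h (adjusted p = 3.1e-05). A peak 7445 bp away (2L:5650479-5651115) had 23.8 and 34.0 (40 h), 78.2 and 73.3 (60 h) and 46.2 and 56.7 (72 h), a log2 change of 1.38 ± 0.23 to 60 h (adjusted p = 0.00089). So the start site was highest at 40 h and the distal peak at 60 h, with no overlap between those ages at either peak.

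The start of DIP-delta (3L:5423659-5424186) fell from 77.5 and 101 at 40 h to 36.0 and 29.8 at 60 h and 17.5 and 13.7 at 72 h (-2.44 ± 0.25 by 72 h, adjusted p = 1.9e-05). Its peak at 12452 bp had 19.0 and 17.2 (40 h), 38.6 and 38.0 (60 h) and 33.5 and 43.97 (72 h) (1.04 ± 0.25 to 60 h, adjusted p = 0.0084; lost without 40 h replicate 2). At beat-Ia, which encodes a secreted protein needed for motor axons to leave their bundle, a peak at 19121 bp (2L:16069086-16069637) had 60.5 and 101 (40 h), 9.32 and 13.02 (60 h) and 14.0 and 18.9 (72 h), a log2 change of -2.72 ± 0.33 to 60 h (adjusted p = 9.9e-05). Its peak at 8605 bp (2L:16058570-16058844) rose late, with 18.4 and 20.2 (40 h), 19.4 and 23.2 (60 h) and 44.3 and 70.5 (72 h) (1.49 ± 0.28 from 40 h to 72 h, adjusted p = 0.0013). The start of dpr16 fell by 0.76 ± 0.23 (adjusted p = 0.014; lost without 40 h replicate 2 or 72 h replicate 1), and its peak at 5944 bp rose by 1.28 ± 0.24 (adjusted p = 0.0011). Over all 818 absent genes with at least 2 tested peaks, 55 (6.72%) had both a rise and a fall from 40 h to 60 h, and 103 (12.6%) from 40 h to 72 h. These shares were not computed for RNA-table genes or for the surface protein list. Whether such courses were more frequent at the surface protein genes was not tested.

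Glial and photoreceptor genes had few peaks among those described. The RNA table listed 9 genes of the glial list and 15 of the photoreceptor list, so the choice by name left out their peaks. Each list had 3 genes with peaks here. All 4 peaks of the glial list lay at start sites or within 500 bp, and 3 fell from 40 h to 72 h (median -0.98). Of all tested peaks 29.4% fell over that interval. The start of gcm, a transcription factor gene known for glial fate and also needed for lamina neurons to form (2L:9581694-9582095), had 97.8 and 116 (40 h), 38.9 and 36.5 (60 h) and 25.4 and 33.5 (72 h), a log2 change of -1.47 ± 0.22 to 60 h (adjusted p = 0.00038). Its neighbour gcm2 fell by 1.20 ± 0.25 (adjusted p = 0.0039), while the summed RNA of 6 glial markers was highest in the 72 h libraries. Of 5 tested photoreceptor peaks 3 fell by 72 h, and the median mean level of that list was 62.75. Of the absent genes' peaks on the rest of the arms with a mean level of 60 or more, 61.9% fell. The part of level in these falls was not tested. The highest near peak outside the histone and ribosomal RNA genes was that of Rh5, the gene of a blue-sensitive rhodopsin (2L:12006950-12007730), with 308 and 415 (40 h), 272 and 255 (60 h) and 165 and 183 (72 h), a log2 change of -1.04 ± 0.20 (adjusted p = 0.0012). A peak of the ultraviolet rhodopsin gene Rh3 fell by 1.43 ± 0.21 (adjusted p = 0.00022), and Rh4 did not pass (0.32 ± 0.20, adjusted p = 0.19).

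Most rises of neuropeptide gene peaks were those of RYa, whose 79 tested peaks lie at an arm end: 70 rose from 40 h to 72 h and none fell (13 rises without 40 h replicate 2, 44 after quantile normalization). The other 30 tested peaks gave 6 rises and 6 falls (3 and 2 without 40 h replicate 2, 2 falls without 72 h replicate 1 and 2 rises without 72 h replicate 2). Their median was -0.09 and turned to 0.31 when scaled to reads in peaks and to 0.05 without 72 h replicate 1. The start of Tk, which encodes tachykinin peptides (3R:12005332-12005913), had 79.7 and 124 (40 h), 73.2 and 53.3 (60 h) and 36.6 and 38.3 (72 h), a log2 change of -1.39 ± 0.25 (adjusted p = 0.00092). Of 74 peaks of receptors for peptides and amines 23 rose and 18 fell (31.1% and 24.3%, all tested peaks 26.0% and 29.4%). Their median was 0.22, from 0.06 after quantile normalization to 0.62 scaled to reads in peaks, where 35 rose. At the start of Dop2R, a dopamine receptor gene (X:20062372-20063144), the levels were 127 and 185 (40 h), 77.6 and 53.5 (60 h) and 36.4 and 40.8 (72 h), a log2 change of -1.97 ± 0.25 (adjusted p = 7.4e-05). The start of CNMaR, a peptide receptor gene, did not pass (-0.03 ± 0.20, adjusted p = 0.92) and lies over fry of the RNA table.

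Peaks of chemosensory genes changed at shares near the background. Chemoreceptor, odorant-binding and ppk channel genes had 203 peaks at 84 genes, and of 173 tested 56 rose (32.4%) and 49 fell (28.3%) by 72 h, against 26.0% and 29.4% of all tested peaks. These were 25 and 31 without 40 h replicate 2, and 33 rose without the lowest 25% of peaks. Peaks of the pheromone receptor gene Or67d and of the gustatory receptor gene Gr98a fell (log2 changes of -1.81 ± 0.22 and -1.88 ± 0.22, adjusted p = 6.2e-05 and 4.2e-05). Of 23 cuticle peaks 10 rose and 3 fell in the first step (5 and 1 without 40 h replicate 2, 1 fall without replicate 1), and 13 rose and 2 fell by 72 h (4 rises without 40 h replicate 2, 7 without 72 h replicate 2 and 5 after quantile normalization). A peak near Cpr51A, a cuticle protein gene (2R:14519905-14521475), had 181 and 237 (40 h), 39.9 and 30.4 (60 h) and 29.9 and 26.9 (72 h), a log2 change of -2.54 ± 0.22 to 60 h (adjusted p = 1.7e-05). Near TwdlE, of the Tweedle cuticle proteins, the levels were 16.2 and 16.0 (40 h), 41.7 and 46.8 (60 h) and 65.3 and 57.2 (72 h), a log2 change of 1.40 ± 0.22 to 60 h (adjusted p = 0.00058). In both cuticle peaks the 40 h libraries stood apart from the other 4, in opposite directions.

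Of 32 peaks of detoxification enzymes 23 rose and 1 fell by 72 h (median 0.96; 15 rises without 40 h replicate 1, 8 without replicate 2 and 11 without 72 h replicate 2), and of 17 peaks of digestive enzymes 10 rose and 2 fell (2 to 6 rises without either 40 h replicate or 72 h replicate 2, 3 after quantile normalization). Near Cyp4e3, a cytochrome P450 gene, the levels were 57.9 and 75.3 (40 h), 133 and 111 (60 h) and 117 and 103 (72 h) (0.87 ± 0.21 to 60 h, adjusted p = 0.0078). The highest digestive peak went the other way: at Jon99Ciii, a protease gene (3R:29920839-29921721), the levels were 88.3 and 120.4 (40 h), 19.1 and 16.2 (60 h) and 21.6 and 20.2 (72 h), a log2 change of -2.48 ± 0.25 to 60 h (adjusted p = 2.8e-05). Of 14 antimicrobial and recognition peaks 8 rose and 2 fell, with 5 rises without 40 h replicate 2 or 72 h replicate 2. Their median was 0.90, and -0.45 when the lowest 25% of peaks were left out. By 72 h 26.0% of all tested peaks rose and 29.4% fell, the background of the counts in this paragraph. The median mean level was 34.1 at detoxification, 34.4 at digestive and 33.2 at antimicrobial peaks. Of the absent genes' peaks on the rest of the arms with a mean level under 40, 30.3% rose and 18.6% fell. The part of level or position in these counts was not tested. Muscle genes had 9 rises and 5 falls of 21 (2 and 3 without 40 h replicate 2, 5 rises without 72 h replicate 2 or after quantile normalization), and secreted signalling ligands 1 and 3 of 19 (0 falls without 40 h replicate 2). Peaks of the FGF gene bnl and the netrin gene NetA fell (log2 changes of -1.66 ± 0.36 and -1.03 ± 0.24, adjusted p = 0.0026 and 0.0045), calls lost without 40 h replicate 2.

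Peaks of cell division genes rose about as often as they fell. From 40 h to 72 h both shares lay below those of all tested peaks (26.0% higher and 29.4% lower). Of the genes of division and DNA replication, a list chosen after values had been seen, 38 were absent from the RNA table and 41 in it, and of their 49 peaks 32 (65.3%) lay within 500 bp of a start, against 18.2% of all peaks of absent genes. Median levels were 39.7 and 34.5 (40 h), 44.9 and 39.9 (60 h) and 39.2 and 43.9 (72 h), and of 41 tested 6 rose and 5 fell by 72 h. These were 1 and 0 without 40 h replicate 2 and 1 and 2 without 72 h replicate 2, and the falls 3 without 40 h replicate 1 and 8 without either 60 h replicate. The median was -0.10 and turned to 0.30 when scaled to reads in peaks. The start of sti, the gene of citron kinase of cytokinesis (3L:12514634-12515276, also over tral of the RNA table), had 93.6 and 116 (40 h), 102 and 82.8 (60 h) and 86.9 and 79.7 (72 h) and did not pass by 72 h (-0.32 ± 0.20, adjusted p = 0.19). At CycE, the G1 cyclin gene, a peak at 733 bp had 80.6 and 99.0 (40 h), 72.8 and 60.9 (60 h) and 62.5 and 50.5 (72 h), a log2 change of -0.66 ± 0.21 (adjusted p = 0.022; lost without 40 h replicate 2 or 72 h replicate 2).

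Heat shock genes were a further list chosen after values had been seen. Hsp22 and 3 Hsp70 genes were absent from the RNA table, which listed the near-identical copies Hsp70Ab, Hsp70Bb and Hsp70Bc, so reads of Hsp70 copies may be split between them. Of their 11 tested peaks 8 fell by 72 h and none rose (median -0.81; 5 falls without either 40 h replicate or without 72 h replicate 2). After quantile normalization 3 fell (median -0.28), and scaled to reads in peaks 4 fell (median -0.41). Of all tested peaks 29.4% fell by 72 h. The median mean level of the list was 89.97. Of the absent genes' peaks on the rest of the arms with a mean level of 60 or more, 61.9% fell (median -0.78). The part of level in the result was not tested. The start of Hsp22, a small chaperone gene (3L:9373797-9374067), had 275 and 324 (40 h), 159.7 and 106 (60 h) and 72.3 and 53.9 (72 h), a log2 change of -2.24 ± 0.24 (adjusted p = 2.5e-05). At Hsp70Bbb the levels were 138 and 180.1 (40 h), 144 and 122 (60 h) and 88.7 and 79.9 (72 h), a log2 change of -0.90 ± 0.20 (adjusted p = 0.0034). Of 8 peaks of genes in wide use, those of Trl, 7SL RNA, mRpL53 and MEP-1 fell by 72 h (log2 changes of -1.25 ± 0.19, -1.06 ± 0.21, -0.65 ± 0.18 and -0.97 ± 0.19, adjusted p = 0.00026, 0.0018, 0.011 and 0.0017). After quantile normalization the calls of 7SL RNA and MEP-1 were lost and mRpL53 turned to a rise of 0.26 (adjusted p = 0.041), and the call of mRpL53 was also lost scaled to reads in peaks and without either 72 h replicate. Those of Tim10, Nap1, HDAC3 and Prx5 did not pass (log2 changes of 0.42 ± 0.19, 0.09 ± 0.20, 0.05 ± 0.20 and 0.25 ± 0.19, adjusted p = 0.074, 0.71, 0.84 and 0.28).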

How the data were processed

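L1 neurons of 3 ages were profiled with 6 ATAC and 7 RNA libraries, grouped by age from their labels. RPKM values of genes were deposited by the authors, after a filter that the sources used here do not give. The ATAC values, not labelled with a unit, are RPKM of each peak as deposited by the authors, since level times width gave whole reads per library (tolerance 0.1 read). Those reads gave the depth and the library size that the levels imply. Peaks came from 1 call on the merged libraries, per the file headers. Bowtie2 2.2.9, MACS2 2.1.1, bedtools and edgeR 3.26.8 are named without roles per the submitters' processing notes, and the sources used here give no genome build. Positions are those of the file, and 88.2% of the 19896 distances above 0 matched Release 6 RefSeq gene ends within 1 bp. That table gave gene types and overlaps.

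Levels were tested as log2(RPKM + 1) in limma 3.58.1 (R 4.3.3; trended empirical Bayes) over the 6 ATAC libraries, without the 10% of peaks of lowest mean level (under 30.14), with Benjamini-Hochberg adjustment over the 23508 others. Of the absent genes' peaks 5725 passed that filter. Medians per library were compared between peak sets by exact sign-flip permutation, two-sided. The fit was tested on simulated data. The main fit did not pair libraries by replicate number. Deviations of same-numbered libraries correlated at -0.472 (40 and 60 h), -0.137 (40 and 72 h) and 0.533 (60 and 72 h). With 2 libraries per age and mixed signs, these values cannot decide whether the numbers pair the libraries.

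The peaks and all gene lists were chosen with earlier results of these data known. Named were the 8 largest rises and 8 largest falls per step with libraries that did not overlap, 1 per gene; the 8 highest peaks within 500 bp and beyond 10000 bp; the 8 genes with most peaks; and up to 4 highest peaks per list. Other peaks and the lists said to be so were chosen after values had been seen. Alternatives were the pseudocount, filter, scaling, trend, replicate block, leaving out each library, 1 value per gene, and the mean in place of the median; scaling to reads in peaks was added after seeing the data.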

Additional observations from a re-analysis of the deposited data

How the results depend on the processing

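Without the libraries one at a time, the level difference ran from -0.5424 to -0.4514 within 500 bp, -0.4213 to -0.3171 at 500 to 2000 bp, -0.1839 to -0.1265 at 2000 to 10000 bp and -0.07951 to 0.02497 beyond 10000 bp, and 5 libraries cannot reach the threshold. The far difference also turned to 0.02389 after quantile normalization, and with 1 value per gene it was -0.1502 and passed. Counts of changed peaks (higher plus lower) ran from 593 to 3149 (higher 215 to 2342, lower 378 to 807) from 40 h to 60 h. They ran from 32 to 1899 (0 to 1483 and 30 to 416) from 60 h to 72 h, and from 1275 to 3992 (593 to 2740 and 682 to 1258) from 40 h to 72 h. Quantile normalization gave 347 rises in the first step, and in the second 278 changes, 84 rises and 194 falls. Scaling to reads in peaks gave 937 rises in the first step, 87 changes and 63 falls in the second, and 3289 rises from 40 h to 72 h; it moved the median of all tested peaks to 0.31, 0.14 and 0.44. The share of rises among the called went from 46.1% to 62.7%, 14.6% to 27.6% and 65.3% to 80.5%. Whether the replicate numbers pair the libraries could not be decided. With the replicate block 58 peaks rose in the second step in place of 22. Changed peaks then numbered 1422 from 40 h to 60 h, 221 from 60 h to 72 h and 3522 from 40 h to 72 h. Without the block they were 1231, 151 and 3287. The cause of these shifts was not tested. Of 232 calls of named peaks 118 were kept under every alternative and 114 were lost under at least 1, most often without 40 h replicate 2 (90). After quantile normalization 3 changed sign: His3:CG33857 (0.0561), His3:CG33854 (0.05395) and mRpL53 (0.2635). Of the alternatives for the level differences and the counts, 120 kept the direction, the side of the threshold and the count within 1.5 times, 37 moved a count, 18 lost the threshold, 2 changed sign and 1 passed it.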

Other observations

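The next peaks lie outside the Y, the arm ends, chromosome 4 and the histone and ribosomal RNA genes. They are the 8 highest beyond 10000 bp, chosen after their values had been seen. All 8 fell from 40 h to 72 h (limma, adjusted p = 3.5e-05 to 0.0027). The mean level that chose them comes from the same libraries, so these p-values only describe the peaks. Of all absent genes' peaks on the rest of the arms with a mean level of 60 or more, 61.9% fell. The peak 27561 bp from NijA, which encodes a ninjurin adhesion protein (3L:10724438-10725528), had 244 and 323 (40 h), 214 and 206 (60 h) and 104 and 99.6 (72 h), a log2 change of -1.46 ± 0.19 (adjusted p = 0.00011). The peak 13953 bp from trh, the gene of a bHLH-PAS factor of tracheal cells (3L:377706-378680), had 159 and 239 (40 h), 167 and 156 (60 h) and 92.1 and 102 (72 h), a fall (adjusted p = 0.0026). Near a5 the fall came mainly after 60 h, with 185 and 268 (40 h), 165 and 130.3 (60 h) and 57.5 and 54.4 (72 h) (-1.37 ± 0.22 from 60 h to 72 h, adjusted p = 0.012). In all 3 peaks the 40 h libraries lay above the 72 h libraries without overlap, and 40 h replicate 2 was the highest library.

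Of the peaks 45.02% overlapped the span of their own nearest gene, 85.3% of those within 500 bp and 33.2% of those beyond 10000 bp. The most frequent course over both steps was no call in either (4429 of 5725 tested peaks), followed by a fall and then no call (602) and a rise and then no call (543). All 23508 tested peaks had the same order, with 16717, 3263 and 2327.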
